A study of Heterocephalus glaber with 3 samples.

Results

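The cytokine genes TNF, IL1B, IL10, CCL2, CSF2 and INHBA were followed across the cells of lung tumours from 3 naked mole-rats (Heterocephalus glaber). They were found by symbol in the feature list, with letter case ignored. All 6 were present, as 6 of 23189 features, with the identifiers ENSHGLG00000013881 for TNF, ENSHGLG00000006083 for IL1B, ENSHGLG00000004313 for IL10, ENSHGLG00000034308 for CCL2, ENSHGLG00000017379 for CSF2 and ENSHGLG00000041796 for INHBA. The animals form 1 group, with 1 single-cell library each, and are called replicates 1, 2 and 3. Per the labels, all 3 were infected with a CRISPR adenovirus whose edits include loss of Rb and an inversion joining Eml4 to Alk, and lungs were taken 15 weeks later. Tumours were cut from the surrounding lung by hand and dissociated, and the labels name no untreated animal. Every comparison is therefore between cell types of the same animals, and the question is which cells carried each transcript.

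Tumour necrosis factor (TNF) and interleukin 1 beta (IL1B) are early inflammatory signals of myeloid cells that act on nearly all tissue cells. Interleukin 10 (IL10) damps myeloid activation, and the chemokine CCL2 draws monocytes into tissue. CSF2, also called GM-CSF, supports macrophages and granulocytes, and INHBA encodes the subunit of which activin A is a dimer, a TGF-beta family ligand that acts on stroma and macrophages.

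The libraries held 9500 to 10000 cell barcodes and 76093932 to 91949365 UMIs (unique molecular identifiers, 1 per captured transcript), and 7929, 8891 and 7779 cells were kept. Cells fell into 29 clusters, of which 23 were named from marker genes as 11 classes and 6 stayed unnamed. The largest classes were monocyte or macrophage-like (5573 cells, called macrophage-like here), T or NK-like (5306), fibroblast or mural-like (2978, called fibroblast-like), plasma-like (2387), neutrophil-like (1431), B-like (1318) and dendritic-like cells (1202). Osteoclast-like cells and clusters 21 and 26 came almost wholly from replicate 2, and their values rest on that 1 library. Replicates 1, 2 and 3 shared 21 to 31 barcodes in pairs, none with an equal UMI total.

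Levels are given in CPM, the gene's UMIs per 1000000 UMIs of the class in that animal, as mean ± SD over animals. The 6 genes differed widely in total UMIs, with 214380 for IL1B, 92768 for TNF, 60410 for INHBA, 48711 for CCL2, 6890 for IL10 and 830 for CSF2. Over all kept cells IL1B stood at 921, 950.1 and 943 CPM in replicates 1, 2 and 3. TNF stood at 274, 522 and 402 CPM, and INHBA at 252, 288 and 251 CPM. The spread between animals was larger for CCL2, with 263, 249 and 134 CPM. It was largest for CSF2, which had 505, 235 and 90 UMIs, or 7.37, 2.92 and 1.14 CPM. IL10 had 31.2, 38.4 and 20.9 CPM. The levels of these genes in every class are plotted per animal below.

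**Figure D1:**
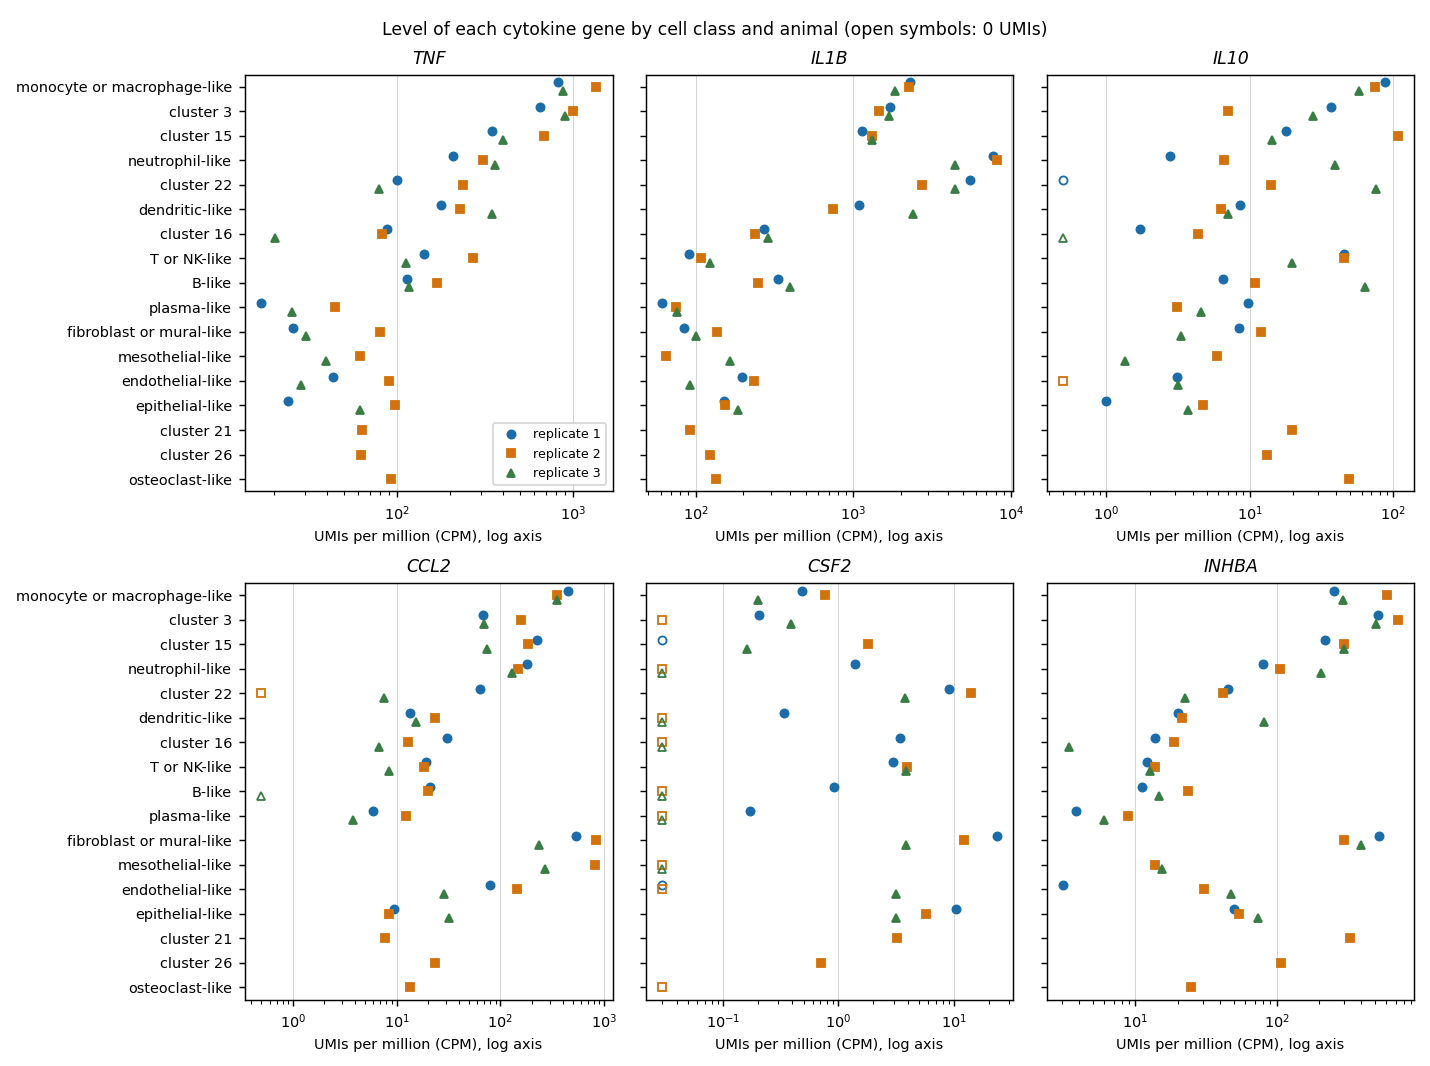
Level of each cytokine gene in each cell class (CPM, log axis), 1 symbol per animal and open symbols where no UMI was counted. By mean over animals, TNF and IL10 were highest in macrophage-like cells, IL1B in neutrophil-like cells and CSF2 in fibroblast-like cells. INHBA was high in cluster 3, fibroblast-like and macrophage-like cells.

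TNF was carried mainly by macrophage-like cells. Its level there was 825, 1348 and 879.8 CPM in replicates 1, 2 and 3 (1018 ± 287, SD, n = 3). The unnamed cluster 3 came next with 653, 996 and 901 CPM (850.2 ± 177). Cluster 3 scored as macrophage-like, but neutrophil markers passed there too and its leading genes included RETN and MMP8, so it was not named. Its range overlapped that of macrophage-like cells. The unnamed cluster 15, led by the granule genes ELANE, PRTN3 and MPO and by cell cycle genes, had 476 ± 180 CPM. Below these, TNF was at 293 ± 78.1 CPM in neutrophil-like, 251 ± 87.3 in dendritic-like, 174 ± 83.1 in T or NK-like and 133 ± 30.3 in B-like cells, and neighbours in this order overlapped. Plasma-like cells, taken as the background, gave 28.8 ± 14.03 CPM, at 16.9, 44.3 and 25.3 CPM in replicates 1, 2 and 3. Fibroblast-like cells were not far above them, with 25.64, 79.65 and 30.39 CPM (45.2 ± 29.9), the higher of the pair in each animal although the ranges overlapped. Macrophage-like cells with clusters 3 and 15 held 85.01%, 83.7% and 91.7% of all TNF UMIs.

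A UMI of TNF was present in 80.6% of macrophage-like and 28.2% of plasma-like cells, whose median depths were 6850 and 14196 UMIs. With each cell thinned to 1000 UMIs, the shares were 40.6%, 58.0% and 46.3% against 1.495%, 3.82% and 2.49%. T or NK-like cells then had TNF in 13.9% ± 4.67 of cells, above the plasma-like share in every animal. The level of TNF in T or NK-like cells was also above that of plasma-like cells in every animal, at 143, 269 and 112 CPM. T or NK-like cells were much shallower, however, with a median of 2748 UMIs. Unthinned, 28.6% of them had a TNF UMI, close to the plasma-like share. TNF UMIs per cell were 0.745 ± 0.430 in T or NK-like and 0.443 ± 0.258 in plasma-like cells. The part of depth in this difference was not tested. Among the lymphocyte clusters, cytotoxic cluster 5 (GZMA, NKG7) had 257 ± 113 CPM.

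IL1B was concentrated most in neutrophil-like cells, at 7709, 8140 and 4440 CPM in replicates 1, 2 and 3 (6763 ± 2023). Macrophage-like cells had 2290, 2266 and 1853 CPM (2136 ± 246). The groups did not overlap. Because neutrophil-like cells were shallow (median 1512 UMIs), the counts per cell ran close together, at 15.9 ± 2.12 IL1B UMIs in a neutrophil-like and 19.6 ± 2.52 in a macrophage-like cell. Cluster 22, which mixed neutrophil genes (IL1R2, CXCR2) with the T cell gene IL7R and was not named, had 4217 ± 1412 CPM and overlapped the neutrophil-like range. Cluster 3 had 1624 ± 144 CPM, dendritic-like cells 1404 ± 868 and cluster 15 1258 ± 105.

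By quantity, macrophage-like cells were the largest source of IL1B, with 52.6%, 66.3% and 36.5% of its UMIs. Neutrophil-like cells, only 5.74% ± 3.28 of cells, held 17.6%, 11.2% and 3.46%. Cluster 3 held 13.3%, 6.002% and 34.7%, the last in the animal with most cluster 3 cells (1207 against 394 and 234). All myeloid classes together, clusters 3 and 15 included, held 92.9%, 92.3% and 92.8%. After thinning to 1000 UMIs, IL1B was found in 89.8% ± 2.45 of neutrophil-like and 72.7% ± 3.22 of macrophage-like cells, against 7.67% ± 0.0656 of plasma-like cells. The unthinned shares were 94.6%, 93.9% and 49.9%. T or NK-like and fibroblast-like cells, at 108 ± 16.7 and 107 ± 26.4 CPM, were little above the plasma-like level of 70.8 ± 8.002 CPM.

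**Figure D2:**
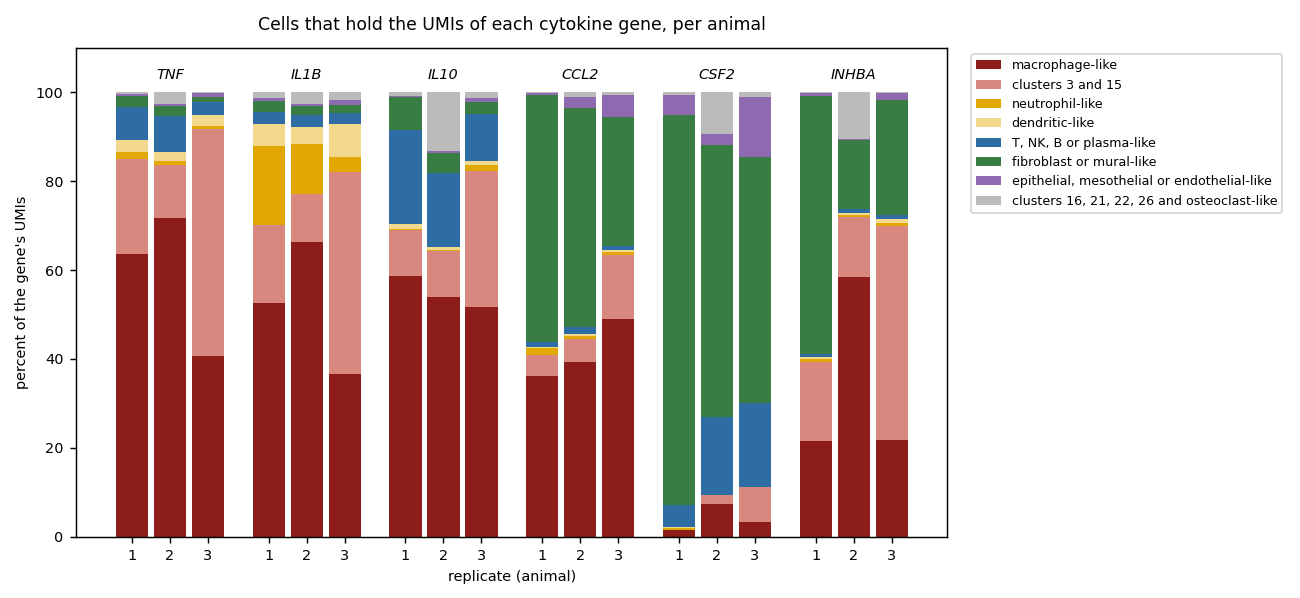
Percent of the UMIs of each cytokine gene held by each cell class, 1 stacked bar per animal. Macrophage-like cells and clusters 3 and 15 (the latter 2 drawn together) make up most of TNF and IL1B. Fibroblast-like cells take 55.6% to 87.7% of CSF2, and CCL2 is divided between fibroblast-like and macrophage-like cells. INHBA is divided between these 2 and clusters 3 and 15. Cluster 3 alone, not drawn by itself, holds 38.9% of INHBA in replicate 3.

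IL10 again had its highest mean in macrophage-like cells, at 86.8, 74.6 and 57.9 CPM (73.1 ± 14.5). With a minimum of 2000 UMIs per cell, when most cells of clusters 11 and 12 left the class, its level fell to 31.4 CPM and T or NK-like cells were the highest class. With the minimum of 1000 UMIs used otherwise, macrophage-like cells held 58.8%, 53.9% and 51.7% of its UMIs. T or NK-like cells had 45.4, 45.4 and 19.6 CPM (36.8 ± 14.9), below macrophage-like cells in each animal, and held 15.7%, 15.4% and 5.26%. Osteoclast-like cells, 193 of them in replicate 2, had 48.8 CPM there. Several smaller groups were uneven between animals. Cluster 15 had 17.8, 107 and 14.2 CPM, and B-like cells had 6.45, 10.8 and 63.6 CPM. Cluster 15 in replicate 2 and B-like cells in replicate 3 were thus above macrophage-like cells. Replicate 3 had only 65 B-like cells, however, and thinned to 1000 UMIs 1.54% of them had an IL10 UMI. That B-like value therefore rests on very few cells. Cluster 22 ranged from 0.0 to 75.1 CPM. Plasma-like cells gave 5.77 ± 3.43 CPM and fibroblast-like cells 7.86 ± 4.33. Thinned to 1000 UMIs, 6.25% ± 0.343 of macrophage-like, 1.95% ± 0.616 of T or NK-like and 0.421% ± 0.225 of plasma-like cells had an IL10 UMI. Before thinning these shares were 15.5%, 4.40% and 2.97%.

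CCL2 came mainly from fibroblast-like and macrophage-like cells. Fibroblast-like cells had 529, 830.2 and 236 CPM (532 ± 297) and macrophage-like cells 449, 353 and 352 CPM (385 ± 55.5). These ranges overlapped, and in replicate 3 the macrophage-like level was the higher. Mesothelial-like cells, of which replicate 1 had only 8, reached 818 CPM in replicate 2 and 268 CPM in replicate 3. Fibroblast-like cells held 55.5%, 49.3% and 29.0% of CCL2 UMIs. Macrophage-like cells held 36.1% and 39.4% in replicates 1 and 2, and in replicate 3 more than the fibroblast-like cells. Neutrophil-like cells had 153 ± 25.99 CPM, whereas T or NK-like and plasma-like cells had 15.4 ± 5.96 and 7.32 ± 4.40 CPM. Thinned to 1000 UMIs, CCL2 was found in 23.8% ± 9.68 of fibroblast-like, 16.7% ± 0.746 of macrophage-like and 0.746% ± 0.317 of plasma-like cells (43.4%, 35.8% and 8.75% before thinning). CCL2 belongs to a family of similar chemokine genes, and how reads shared with close copies were counted is not given in the sources used here, so its level is uncertain to that extent.

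CSF2 was the rarest of the 6 and the only one whose UMIs came mostly from fibroblast-like cells in all 3 animals. Fibroblast-like cells had 23.4, 12.1 and 3.84 CPM (13.1 ± 9.83) and held 87.7%, 61.3% and 55.6% of its UMIs. Replicate 1 was the highest and replicate 3 the lowest. Epithelial-like cells, lung lining cells that are a known source of GM-CSF, had 10.5, 5.69 and 3.15 CPM, and within them alveolar type 2-like cells had 18.8, 7.05 and 5.37 CPM from only 7, 4 and 4 UMIs. T or NK-like cells had 2.97, 3.89 and 3.82 CPM and held 4.36%, 17.5% and 18.9% of CSF2 UMIs. Macrophage-like cells had 7, 17 and 3 UMIs, or 0.483, 0.760 and 0.204 CPM. Plasma-like cells had 2, 0 and 0 UMIs, where 3 UMIs would have been 0.258, 0.490 and 0.183 CPM. The value of cluster 22 (8.93 ± 5.11 CPM) rests on 1 UMI in each animal.

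INHBA had several sources. Cluster 3 had 528, 723 and 504 CPM (585 ± 120), fibroblast-like cells 530.0, 301 and 397 CPM (409 ± 115) and macrophage-like cells 255, 607 and 295 CPM (386 ± 193). The 3 ranges overlapped, and the order of fibroblast-like and macrophage-like cells turned in replicate 2. In that animal macrophage-like cells held 58.5% of INHBA UMIs and fibroblast-like cells 15.5%. In replicate 1 the shares were 21.4% and 58.0%, and in replicate 3 cluster 3 held the largest share (38.9%). Cluster 21, a keratin-rich cluster of replicate 2, had 332 CPM. T or NK-like cells had 12.8 ± 0.893 and plasma-like cells 6.19 ± 2.52 CPM. Thinned to 1000 UMIs, INHBA was found in 20.2% ± 6.72 of macrophage-like, 16.03% ± 4.39 of fibroblast-like and 0.473% ± 0.0689 of plasma-like cells (44.2%, 47.0% and 6.43% before thinning).

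The levels were then compared by edgeR's quasi-likelihood test on counts summed per animal and class, with the animal as a block and Benjamini-Hochberg adjustment over all genes. The genes that formed the clusters did not include the 6 cytokines, but they came from the same cells, so these p-values are smaller than those of groups chosen independently. With 3 animals an exact sign-flip test of 1 gene could not go below a two-sided p of 0.25.

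Against all other cells, macrophage-like cells had higher TNF, IL1B, IL10 and CCL2 and lower CSF2. Across all genes 54.9% passed the threshold (adjusted p under 0.05) in this comparison, so 5 of 6 passing is to be read beside a high background. TNF differed by a log2 fold change of 2.44 ± 0.29 (SE; 1018 against 208 CPM; adjusted p = 0.001). IL1B differed by 2.01 ± 0.25 (adjusted p = 0.0011), IL10 by 2.18 ± 0.14 (adjusted p = 0.00018) and CCL2 by 1.40 ± 0.21 (adjusted p = 0.0023). All 4 were higher in 3 of 3 animals. CSF2 was lower by -2.95 ± 0.41 (27 UMIs against 803; adjusted p = 0.0017). INHBA, at 386 against 219 CPM, did not pass (0.81 ± 0.40, adjusted p = 0.13), but this call was not firm. It passed with clusters 3 and 15 joined to the class (1.46, adjusted p = 0.020), with a mitochondrial limit of 10% (1.16, adjusted p = 0.022), with cells thinned to 1000 UMIs (1.69, adjusted p = 0.0017), with DESeq2 (0.83, adjusted p = 0.038) and without replicate 3 (1.17, adjusted p = 0.023), and without replicate 2 it was 0.18 (adjusted p = 0.28). The IL10 and CCL2 differences depended on which cells entered the class: CCL2 was at -0.26 (adjusted p = 0.62) with a mitochondrial limit of 10%, and IL10 at -0.034 (adjusted p = 0.94) with a minimum of 2000 UMIs. Under the first setting 1.2% of the remaining cells of cluster 6 and 26.2% of those of cluster 12 were still classed as macrophage-like, and under the second 1.7% of cluster 12 and 0.6% of cluster 11.

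Fibroblast-like cells against all other cells showed the reverse for the early myeloid signals. TNF was lower by -3.88 ± 0.30 (adjusted p = 0.00091), IL1B by -3.75 ± 0.22 (adjusted p = 0.00065) and IL10 by -2.59 ± 0.26 (adjusted p = 0.0016). CSF2 was higher by 3.12 ± 0.36 (637 UMIs against 193; adjusted p = 0.0024) and CCL2 by 1.45 ± 0.33 (532 against 141 CPM; adjusted p = 0.018), each in 3 of 3 animals. INHBA did not pass (0.61 ± 0.34, adjusted p = 0.19). Of all genes, 49.2% passed. Without replicate 1 the CCL2 difference was of the same size but no longer passed (1.45, adjusted p = 0.11), and without replicate 2 INHBA passed (0.98, adjusted p = 0.016). The 7 measured macrophage markers summed to 481 to 622 CPM in fibroblast-like cells, against 3918 to 5497 in macrophage-like and 106 to 193 in plasma-like cells, and their part in these values was not tested.

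T or NK-like cells against all other cells were lower in 4 of 6 genes and higher in none. With 63.2% of all genes passing here, this count is near the background. TNF was lower by -1.49 ± 0.19 (adjusted p = 0.00037), IL1B by -3.44 ± 0.11 (adjusted p = 9.3e-07), CCL2 by -4.12 ± 0.11 (adjusted p = 6.3e-07) and INHBA by -4.68 ± 0.10 (adjusted p = 6.3e-07). IL10 did not pass in either direction (0.13 ± 0.15, 36.8 against 29.3 CPM, adjusted p = 0.47), and its sign changed without replicate 1 (-0.047, adjusted p = 0.85), whereas without replicate 3 it passed (0.31, adjusted p = 0.035). CSF2 did not pass either (-0.04 ± 0.53, adjusted p = 0.95) and rested on replicate 1, without which it was 0.93 (adjusted p = 0.065).

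Neutrophil-like cells were set against macrophage-like cells to ask how the myeloid sources differ. IL1B was higher in neutrophil-like cells by 1.93 ± 0.20 (6763 against 2136 CPM; adjusted p = 8.4e-06). TNF was lower by -1.49 ± 0.19 (adjusted p = 4.5e-05), CCL2 by -1.02 ± 0.17 (adjusted p = 0.00051), INHBA by -1.26 ± 0.27 (adjusted p = 0.0032) and IL10 by -2.32 ± 0.49 (34 UMIs against 3781; adjusted p = 0.0028). Each sign held in 3 of 3 animals. CSF2 had too few UMIs to be tested, and 30.3% of all genes passed. The CCL2 difference was lost with a mitochondrial limit of 10% (0.033, adjusted p = 0.94) and with finer clusters (-0.38, adjusted p = 0.092), and the IL10 difference with a minimum of 2000 UMIs (-0.0020, adjusted p = 1.0), which 284 of 1324 cells of neutrophil-like cluster 7 passed. The macrophage-like side moved too under that setting, since 1.7% of cluster 12 and 0.6% of cluster 11 stayed in the class and its IL10 level was 31.4 CPM. The 7 macrophage markers summed to 1298 to 1437 CPM in neutrophil-like cells, and their part in the levels of TNF, CCL2 and INHBA there was not tested.

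**Figure D3:**
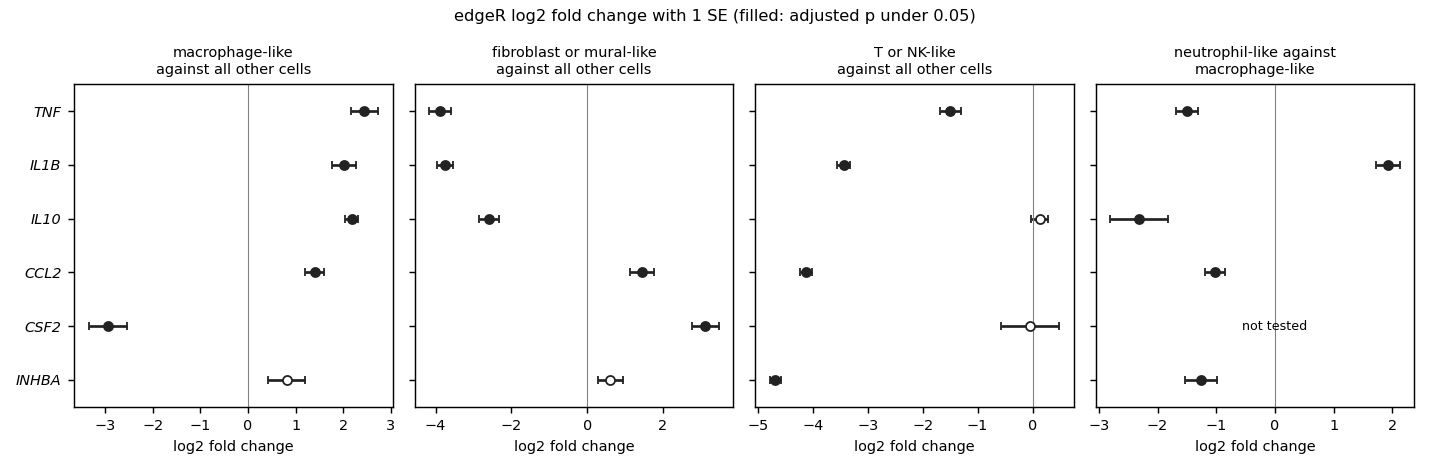
edgeR log2 fold change of each cytokine gene with 1 SE in the 4 comparisons of classes, filled where the adjusted p is under 0.05. TNF, IL1B and IL10 lie to the right in macrophage-like and to the left in fibroblast-like cells, CSF2 the opposite, and INHBA is unfilled in both.

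Within the macrophage-like class the genes were not shared out evenly. The class joined 4 clusters: cluster 2 led by interferon-response genes (CXCL11, IFIT2, IFIT3, OAS1), the alveolar macrophage-like cluster 6 (FABP4, GPNMB), cluster 11 (VCAN, CFD, SORL1) and cluster 12 (C1QB, C1QC, CLEC4G). Cluster 2 supplied 932 and 1082 cells in replicates 1 and 2 but 63 in replicate 3, where cluster 6 (680 cells) and cluster 12 (526) were the largest. The members played no part in forming these clusters, and the values that follow are descriptions.

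TNF was spread across all 4, from 756 ± 125 CPM in cluster 6 to 1325 ± 514 in cluster 2. Cluster 6 (616 to 855 CPM) overlapped cluster 11 (599 to 1465 CPM) but lay below clusters 12 (902 to 1262 CPM) and 2 (1005 to 1917 CPM). IL1B was graded more steeply. Cluster 11 had 4298, 5410 and 5269 CPM, cluster 2 had 3316, 3441 and 2940 CPM, and alveolar macrophage-like cluster 6 had only 584, 662 and 723 CPM, below the others in every animal. IL10 was highest in cluster 12, at 319, 292 and 182 CPM (264 ± 72.5), against 92.7 ± 17.8 in cluster 2, 69.2 ± 3.601 in cluster 11 and 11.03 to 15.05 in cluster 6. Cluster 12 made up 3.84% of cells and held 28.1% ± 8.07 of IL10 UMIs, and IL10 was itself among its 10 leading genes. CCL2 had another order, with 585 ± 172 CPM in cluster 12, 442 ± 93.0 in cluster 6, 269.9 ± 91.6 in cluster 2 and 169 ± 91.6 in cluster 11. INHBA was highest in cluster 2, at 379, 985 and 570.0 CPM, next to 585 ± 120 in cluster 3. Cluster 6 was thus low in IL1B and IL10 beside the other 3 clusters in each animal, but not low in CCL2.

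**Figure D4:**
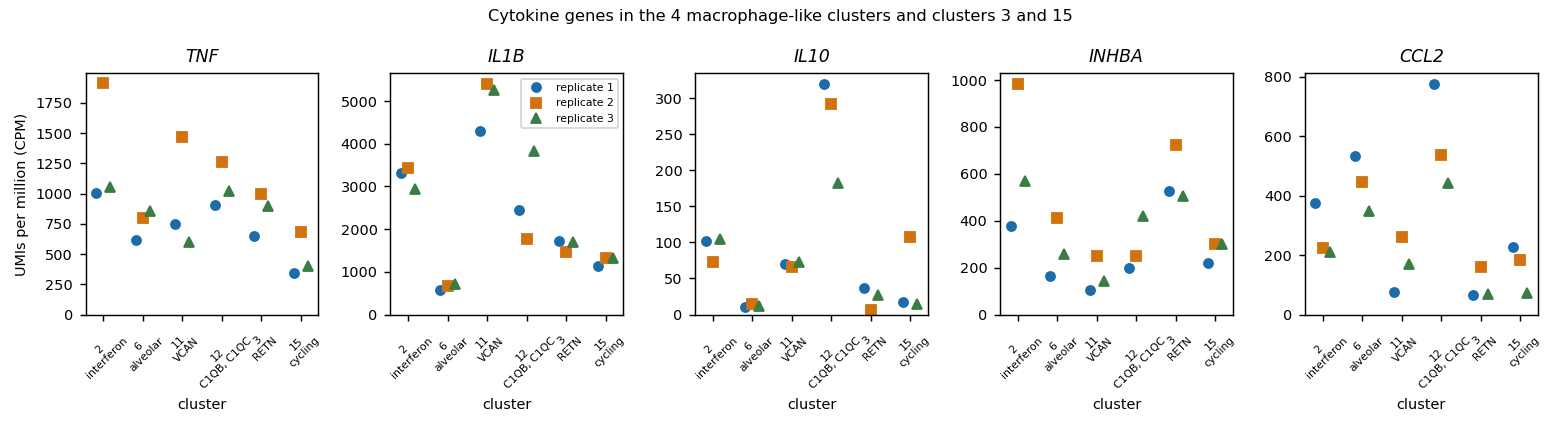
CPM of TNF, IL1B, IL10, CCL2 and INHBA in the 4 macrophage-like clusters and in the unnamed clusters 3 and 15, 1 symbol per animal. IL10 peaks in cluster 12 (182 to 319 CPM), IL1B is lowest in cluster 6 (584 to 723 CPM), and TNF is present in all 6.

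Cells of 1 cluster also differed among themselves. The 10% of cells with most UMIs of the gene held 41.1% of TNF UMIs in cluster 2 and 24.8% of IL1B UMIs in neutrophil-like cluster 7, where the median cell had 15 IL1B UMIs. For IL10 the median cell of cluster 12 had 0 UMIs, the highest had 34, and the top 10% held 71.6%, a share that at so few UMIs per cell is not comparable with the others. Within macrophage-like cells thinned to 2000 UMIs, IL1B was found in 90.1%, 89.1% and 84.8% of TNF-positive cells and in 73.7%, 66.8% and 73.5% of the others. TNF was in turn found in 67.5%, 88.6% and 79.6% of IL10-positive cells, against 53.9%, 69.9% and 60.5% of IL10-negative ones. Cells with IL10 thus carried the inflammatory transcript TNF more often than cells without it, in each animal. INHBA was found in 27.1%, 40.0% and 28.4% of IL1B-positive cells, against 6.79%, 20.6% and 12.1% of the rest. CCL2 went the other way, at 22.8%, 21.4% and 22.7% of IL1B-positive cells against 28.6%, 29.1% and 31.4%. The shares pool all macrophage-like clusters, which differed in these genes. Thinned to 1000 UMIs, IL10 was found in 16.3% of cluster 12 and 1.59% of cluster 6 cells, and TNF in 52.3% and 39.3%. IL1B was found in 41.3% of cluster 6 and 90.2% of cluster 11 cells, and CCL2 in 20.8% and 9.54%. The mix of clusters and a link within cells cannot be told apart here. These shares were not tested, because cells are not replicates.

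Within the fibroblast-like class the level of CCL2 was higher in one cluster and those of CSF2 and INHBA in the other. Cluster 9 (MFAP4, MGP, CCL19, CCL11) had 2135, 2707 and 971 CPM of CCL2, and cluster 4 (MMP3, IGF2, COL1A1, COL3A1, TAGLN) had 285, 198 and 49.5 CPM. A CCL2 UMI was found in 71.4%, 73.5% and 48.2% of cluster 9 cells, although these were the shallower (median 5367 against 18049 UMIs). Cluster 9 made up 5.06% of cells and held 31.4% ± 8.35 of CCL2 UMIs. Cluster 4, larger and deeper, still held 25.95%, 8.77% and 4.86% of them in replicates 1, 2 and 3. CSF2 had 440, 143 and 50 UMIs in cluster 4 (26.8, 16.1 and 4.81 CPM) and 3, 1 and 0 in cluster 9. Cluster 4 alone held 87.1%, 60.9% and 55.6% of all CSF2 UMIs. INHBA was at 594, 364 and 472 CPM in cluster 4 and 109.7, 114 and 97.9 CPM in cluster 9. The clusters overlapped in none of these 3 genes.

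This comparison of clusters was added after the levels had been seen. In it CCL2 was lower in cluster 4 by -3.76 ± 0.27 (adjusted p = 2e-05), CSF2 higher by 4.87 ± 0.38 (adjusted p = 3.2e-05) and INHBA higher by 2.02 ± 0.17 (adjusted p = 5.2e-05), each in 3 of 3 animals, where 44.2% of all genes passed. The other members were at low levels in both clusters. IL1B was lower by -1.06 ± 0.15 (90.6 against 174 CPM; adjusted p = 0.0006) and TNF by -0.66 ± 0.12 (41.8 against 58.6 CPM; adjusted p = 0.0029). IL10 was higher by 1.53 ± 0.38 (adjusted p = 0.012), but from 9.08 against 2.82 CPM, with plasma-like cells at 5.77, and without replicate 1 it did not pass (1.08, adjusted p = 0.056). A CSF2 UMI was found in 15.98%, 10.8% and 6.19% of cluster 4 cells, and the highest cell had 33. At a mean of 0.343 CSF2 UMIs per cell, a cell with 0 cannot be read as lacking the transcript. INHBA had a UMI in 77.3%, 67.5% and 66.8% of these cells.

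ALK, part of the fusion that the edit is meant to form, was looked at beside these genes after their levels had been seen. It stood at 11.1, 26.5 and 17.1 CPM in cluster 4 and at 2.00, 2.00 and 1.14 CPM in cluster 9, and 3' counts do not tell fusion from native transcripts. Within cluster 4, cells with an ALK UMI had 25.95, 16.15 and 5.45 CPM of CSF2 and cells without one 27.2, 15.95 and 4.49 CPM, which were close in each animal. INHBA was at 562, 379 and 565 CPM with and 608, 351 and 426 CPM without an ALK UMI, with no common direction. CCL2 was lower with one in each animal, at 279.5, 152 and 45.6 CPM against 287.5, 239 and 51.5 CPM. Cells with an ALK UMI were the deeper in each animal (medians of 24660 to 28599 against 13461 to 17710 UMIs), and none of this was tested. Cluster 4 had only 182, 236 and 178 ALK UMIs over 726, 425 and 582 cells in replicates 1, 2 and 3. At so few per cell, a cell without an ALK UMI cannot be read as lacking the transcript. The split therefore does not separate cells that express ALK from cells that do not. Whether CSF2, INHBA and CCL2 go with ALK cannot be read from it. All cells outside clusters 4 and 9 together had 0.786, 9.56 and 1.13 CPM of ALK, from 39, 656 and 75 UMIs in replicates 1, 2 and 3. Plasma-like cells gave 0.258, 1.14 and 0.183 CPM. A clear ALK level outside cluster 4 thus rests on replicate 2. Whether the cells of cluster 4 were tumour or stromal cells was not tested.

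**Figure D5:**
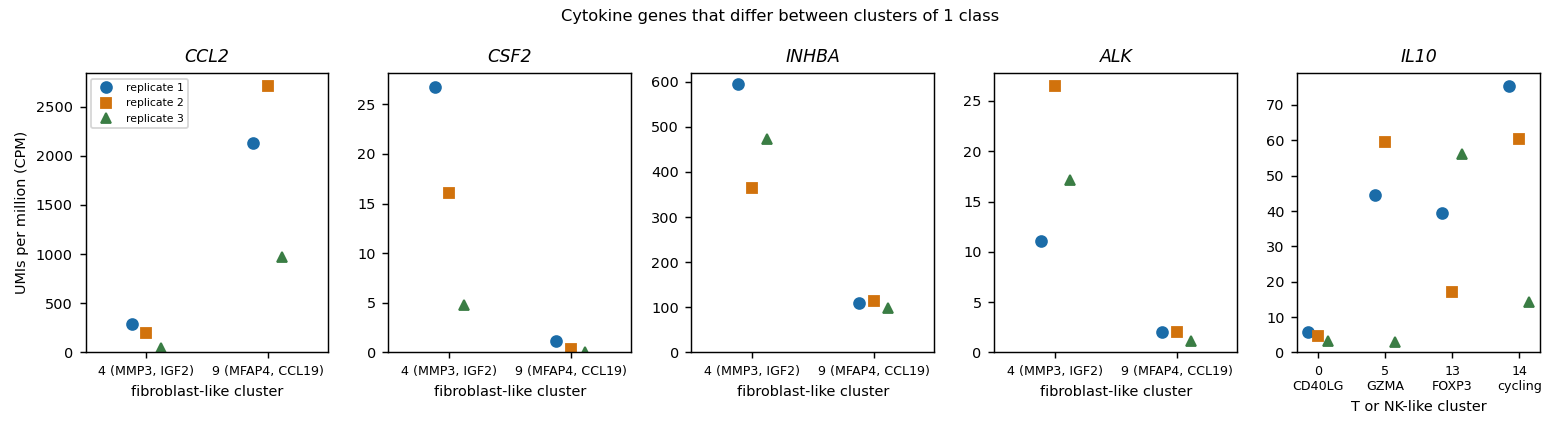
CPM per animal of CCL2, CSF2, INHBA and ALK in fibroblast-like clusters 4 and 9 and of IL10 in the T or NK-like clusters. CCL2 is high in cluster 9, CSF2 and INHBA in cluster 4, and IL10 is under 6 CPM in cluster 0 in every animal.

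The lymphocyte part of IL10 lay outside the largest T-like cluster. Cluster 0 (CD40LG, IL7R), with 2174 cells, had 10, 9 and 5 IL10 UMIs, or 5.71, 4.56 and 3.22 CPM, which is at the plasma-like level. Cytotoxic cluster 5, named NK-like from its markers as was cluster 14, had 44.7, 59.6 and 2.89 CPM. Cluster 13, with the regulatory T cell genes FOXP3, IL2RA and CTLA4, had 39.4, 17.0 and 56.1 CPM, and cycling cytotoxic cluster 14 (EOMES, TOP2A) had 75.4, 60.5 and 14.4 CPM. In replicates 1 and 2 cluster 14 was the highest of the 4, and in replicate 3 cluster 13 was. In a comparison added after these levels had been seen, IL10 was higher in clusters 5, 13 and 14 than in cluster 0 by 3.29 ± 0.22 (877 UMIs against 24; adjusted p = 6.1e-09; 3 of 3 animals), where 40.9% of all genes passed. IL1B (-0.33 ± 0.10, adjusted p = 0.019) and CCL2 (-0.51 ± 0.19, adjusted p = 0.042) passed as lower, at 104.5 against 121 and 14.5 against 19.0 CPM, and neither did so without replicate 1 or without replicate 2. TNF (-0.30 ± 0.13, adjusted p = 0.077) and INHBA (-0.58 ± 0.23, adjusted p = 0.055) did not pass.

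The receptors of these cytokines are each given as their own level. TNFRSF1A, the broadly expressed TNF receptor, was highest in endothelial-like (168 ± 31.9 CPM) and fibroblast-like cells (150.2 ± 4.49). TNFRSF1B, the TNF receptor of leukocytes, was at 64.0 ± 24.4 CPM in neutrophil-like and 58.2 in T or NK-like cells. The signalling receptor IL1R1 was highest in fibroblast-like cells (16.9 ± 0.828 CPM), whereas the decoy receptor IL1R2 was highest in neutrophil-like cells (1337 ± 560), the class with the highest IL1B level. The co-receptor IL1RAP was also highest there (35.1 ± 8.17 CPM). IL10RA, the ligand-binding chain for IL10, was low throughout, with 12.6 ± 7.95 CPM in neutrophil-like and 8.68 in macrophage-like cells, while its partner IL10RB reached 139 ± 22.04 CPM in neutrophil-like cells. CCR1, a chemokine receptor related to that of CCL2, was highest in neutrophil-like cells (323 ± 229 CPM), and the scavenging receptors ACKR1 and ACKR2 were highest in endothelial-like cells (145 ± 109.6 and 114 ± 78.4). Of the activin receptors, ACVR1 and ACVR2A stood at 31.4 ± 1.08 and 11.7 ± 1.25 CPM in fibroblast-like cells, and ACVR1B was highest in mesothelial-like cells (14.6 ± 4.54, n = 2). CCR2, CSF2RA and CSF2RB were not analysed here.

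Of the 77 other genes in the 7 pathway lists, 49 were measured. In macrophage-like cells 8 of 9 tested NF-kB targets were higher and none lower (median log2 fold change 1.21, against -0.02 over all genes). They included the adhesion molecule ICAM1 (1.503 ± 0.20, adjusted p = 0.0016) and the stress gene IER3 (1.42 ± 0.15, adjusted p = 0.00073). Across the alternatives run, 4 to 9 of the 9 were higher and 0 lower. Of 8 IL1 pathway genes 6 were higher and 2 lower (median 1.08), with the antagonist IL1RN up by 2.51 ± 0.29 (adjusted p = 0.00097), the sister cytokine IL1A by 2.05 ± 0.27 (adjusted p = 0.0014) and IL1R1 lower by -1.92 ± 0.22 (adjusted p = 0.00088). Of 8 IL10 pathway genes 6 were higher and none lower (median 0.56), led by IL10RA (1.79 ± 0.16, adjusted p = 0.0004), but only 2 to 4 of them in 10 of the 13 alternatives. Of 6 colony stimulating factor genes 4 were higher and 1 lower, and the macrophage receptor CSF1R was higher by 2.78 ± 0.28 (adjusted p = 0.00061). CSF1R was also among the markers that named this class, so its difference is not an independent result and the count includes it. Of 7 activin pathway genes 1 was higher and 5 lower (median -0.93). Of 7 TNF pathway genes 4 passed, a share near the 54.9% of all genes. Of these 3 were higher, among them the TNF-releasing protease ADAM17 (1.38 ± 0.12, adjusted p = 0.00041), and 1 lower, the lymphocyte cytokine LTA (-2.24 ± 0.32, adjusted p = 0.002). Of the 3 chemokine receptors CCR1 was higher (2.35 ± 0.14, adjusted p = 0.00015) and ACKR1 and ACKR2 were lower.

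In fibroblast-like cells the activin pathway was the list with most genes higher, 6 of 8 and none lower (median 2.16, against -0.02 over all genes). They included the activin-binding inhibitor FSTL3 (3.64 ± 0.21, adjusted p = 0.00065) and the type I receptor ACVR1 (2.94 ± 0.30, adjusted p = 0.0019). IL1R1 was higher by 3.03 ± 0.21 (adjusted p = 0.00078) while 6 of the other 7 IL1 pathway genes were lower. Of 9 NF-kB targets 1 was higher and 6 lower, and of 6 colony stimulating factor genes 0 were higher and 4 lower. The TNF pathway had 2 of 7 higher and 3 lower, and the IL10 pathway 1 of 8 higher and 3 lower. Of 3 chemokine receptors 2 were lower. With 49.2% of all genes passing, the count of the IL10 list is near the background. No list, the activin list included, was tested against it. Within the class, all 6 genes of the colony stimulating factor list, which does not hold CSF2, were lower in cluster 4 than in cluster 9, as were 4 of 8 activin pathway genes (FST by -2.63 ± 0.25, adjusted p = 9.1e-05) and 5 of 9 NF-kB targets, with none higher in these 3 lists. The background there was 44.2%, so the activin and NF-kB counts are close to it.

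T or NK-like cells had higher LTA (3.49 ± 0.33, adjusted p = 7.8e-05) and TNFRSF1B (1.66 ± 0.10, adjusted p = 6.2e-06) among 4 of 7 TNF pathway genes higher and 2 lower. In them 7 of 8 IL1 pathway genes, 6 of 6 colony stimulating factor genes, 6 of 8 activin pathway genes and 5 of 9 NF-kB targets were lower, and 0, 0, 1 and 1 were higher. Of 8 IL10 pathway genes 2 were higher and 3 lower, with the transcription factor MAF up by 2.12 ± 0.20 (adjusted p = 8.3e-05). All 3 chemokine receptors were lower. As 63.2% of all genes passed here, the 6 of 9 NF-kB targets and 5 of 8 IL10 pathway genes that passed in either direction are near the background. MAF was, however, lower by -1.75 ± 0.14 (adjusted p = 7e-08) in clusters 5, 13 and 14 than in cluster 0, opposite in sign to IL10.

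In neutrophil-like against macrophage-like cells, where 30.3% of all genes passed, 7 of 9 NF-kB targets were higher and 1 lower (median 1.01, against -0.07 over all genes), with the prostaglandin enzyme PTGS2 up by 2.81 ± 0.29 (adjusted p = 6.8e-06). Without the animal block only 2 were higher. IL1R2 was higher by 6.47 ± 0.22 (1337 against 18.6 CPM; adjusted p = 2.2e-10), among 4 of 8 IL1 pathway genes higher and 1 lower. Of 8 IL10 pathway genes 4 were higher and none lower, and of 6 TNF pathway genes 3 were higher and 1 lower. The granulocyte receptor CSF3R was higher by 4.90 ± 0.28 (adjusted p = 3.7e-08), among 3 of 5 colony stimulating factor genes higher and 1 lower. CSF3R was among the markers that named neutrophil-like cells, and CSF1R, the gene that was lower, among those of macrophage-like cells. These differences are therefore not independent results. Of 2 chemokine receptors CCR1 was higher, and 0 of 6 activin pathway genes passed edgeR's test, 0 also at an unadjusted p under 0.05 and 0 with DESeq2.

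The pattern of each gene over 44 summed libraries of class and animal was set beside those of 6484 genes with a mean of at least 5 CPM. These correlations are descriptions, since libraries of a class share their cell type and those of an animal their library. TNF was most like C19orf38 (r = 0.90), MEFV (0.87), MRC1 (0.87), LRRC25 (0.85) and C1QB (0.85). IL1B was most like CLEC5A (0.97), LRG1 (0.96), CLEC7A (0.95), CCL15 (0.94) and CD300LF (0.93). Genes most like INHBA included MSR1 (0.85), RAB20 (0.83), CTSD (0.82) and MMP12 (0.79). The likeness was weaker for CCL2, with CHI3L1 (0.79), CD302 (0.75), Rxra (0.74), XKR8 (0.72) and KCTD7 (0.72) on top. Those most like CSF2 included Ldhb (0.76), TNIK (0.74), TNFRSF18 (0.71) and GCLM (0.71). CSF2 had only 830 UMIs in all and few in many of these libraries, so its correlations rest largely on values near the floor. IL10 had no gene above 0.65, with CAMK2N2 (0.65), ELK1 (0.62), HSD17B11 (0.61), IDH3A (0.59) and TNF (0.59) on top. Among the members themselves TNF and IL1B were the most alike (0.71). CSF2, with the same limit, had correlations of -0.25 to 0.18 with the others.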

How the data were processed

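Each animal has 1 deposited matrix of whole-number UMI counts (genes by barcodes), which the authors left unscaled, as its values show. Cell Ranger is given as 7.1.0 per the file headers and as 8.0.0 per the submitters' processing notes. A genome build was not given in the sources used here. Columns left unmapped numbered 0. Features without a symbol, 11611 of 23189, held 36.8% to 37.8% of UMIs and stayed in the tests.

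Cells were kept with at least 1000 UMIs, 500 genes and under 20% of UMIs in 13 mitochondrial genes. Scrublet's automatic threshold marked 1, 0 and 0 cells, which counts as not having worked, so a limit of 0.2 was set on its score, which took out 149, 124 and 172 cells. Counts scaled to 10000 per cell were clustered without the 6 cytokines and the pathway genes (scanpy 1.11.5, leidenalg 0.10.2, 2000 variable genes, 30 components, 20 neighbours, resolution 1, animals not integrated). A cluster was named from at least 3 markers, each in at least 10% of its cells, with a score of at least 1 above the median cluster, and stayed unnamed where another lineage reached 50% of that score or led its 10 leading genes; this rule was set after the clusters had been seen. Of 199 markers 128 were measured.

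UMIs were summed per animal and class (at least 20 cells) and tested with edgeR 4.0.16 in R 4.3.3 (TMM, quasi-likelihood, animal as a block because both sides come from the same animals, threshold 0.05). On counts simulated for the macrophage-like comparison over 14753 genes, 54% of genes changed by a log2 fold change of 1 and 100% of those changed by 2 were recovered, and 0.055% of unchanged genes were called. The simulation changed 100 genes of each size, with the same spread for all genes and an animal effect shared by both sides. It did not form groups from the same cells, so these shares are not error rates of the real tests. DESeq2 1.42.0, filters, resolution, thinning and left-out animals were alternatives. Intervals and floors cover counting error only.

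Named are the 6 cytokines in each class and in their 3 highest clusters, their receptors, the 5 genes most alike in pattern (some of these, and a further edit that the labels give for all 3 animals, are not reported here), and examples from the 2 pathway genes with the largest change in each direction per list and comparison. The members, lists and comparisons were chosen with earlier results of these data known.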

Additional observations from a re-analysis of the deposited data

How the results depend on the processing

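Of 352 member fold changes under alternatives, 317 kept their direction and side of the threshold, 18 lost the threshold, 9 gained it and 8 changed sign. Of 62 counts of genes called 12 moved by over 1.5 times, and of 48 levels in the highest class 9 moved beyond 1 SD or lost first place. Thinning before summing, the joining of clusters 3 and 15 and both comparisons within classes were chosen after the data had been seen. The changes at a 10% mitochondrial limit and at 2000 UMIs go with cells that left the class, as given beside those results; the cause of the others was not tested, except that thinning and left-out animals leave fewer counts.

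The log2 fold changes that changed their call were as follows. For macrophage-like cells CCL2 was -0.26 at the 10% limit, IL10 -0.034 at 2000 UMIs, and INHBA 1.16 (10% limit), 1.46 (clusters 3 and 15 joined), 1.69 (thinned) and 0.83 (DESeq2), with 0.18 to 1.17 when 1 animal was left out. For fibroblast-like cells the range without 1 animal was 1.018 to 1.84 for CCL2 and 0.14 to 0.98 for INHBA. For T or NK-like cells it was -0.047 to 0.31 for IL10 and -0.56 to 0.93 for CSF2, which were -0.26 and 0.48 after thinning, and CSF2 was 0.17 with DESeq2. For neutrophil-like against macrophage-like cells IL10 was -0.0020 at 2000 UMIs and -2.68 with DESeq2, and CCL2 was 0.033 at the 10% limit and -0.38 at resolution 2. Between fibroblast-like clusters IL10 ranged from 1.08 to 1.83 without 1 animal. Between T or NK-like clusters the ranges were -0.55 to -0.068 for TNF, -0.42 to -0.25 for IL1B, -0.59 to -0.36 for CCL2 and -0.85 to -0.40 for INHBA. IL1B and CCL2 there were -0.34 and -0.47 with DESeq2 and -0.26 and -0.44 with no filter on low counts.

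Without the replicate block, which pairs the classes of 1 animal, neutrophil-like INHBA was -1.25 (adjusted p = 0.06). TNF and IL10 between fibroblast-like clusters were -0.64 and 1.51, and IL1B and CCL2 between T or NK-like clusters -0.31 and -0.47. Counts of genes called without the block were 1888 for neutrophil-like cells, 3396 between fibroblast-like and 1435 between T or NK-like clusters, against 3309, 5170 and 3672 with it. The block changed the call of no other member.

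After thinning 4572, 4720, 5563 and 2153 genes were called in the macrophage-like, fibroblast-like, T or NK-like and neutrophil-like comparisons, against 7904, 7154, 9077 and 3309. DESeq2 called 1965 genes between T or NK-like clusters. Leaving out 1 animal gave 4134 to 7453 genes for fibroblast-like cells, 1656 to 4137 for neutrophil-like cells and 2402 to 4230 between T or NK-like clusters.

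IL1B in neutrophil-like cells was at 4138 CPM with 2000 UMIs, and IL10 in macrophage-like cells at 31.4 CPM with 2000 UMIs, when T or NK-like cells were the highest class, and 57.2 CPM with no doublet removal. In fibroblast-like cells CCL2 was at 383 to 679.8 CPM without 1 animal, and INHBA at 349 to 463 CPM. First place for CCL2 went to mesothelial-like cells without replicate 1 and to macrophage-like cells without replicate 2, and for INHBA to macrophage-like cells without replicate 1 and without replicate 3. INHBA there was at 407 CPM with the 10% limit and with 2000 UMIs, when macrophage-like cells were the higher. Depth limits CSF2 most, with 830 UMIs in all.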
